A study of Schizosaccharomyces pombe with 4 samples.

Results

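The deletion of abp1 in fission yeast (Schizosaccharomyces pombe) was followed here through the small RNA windows that held reads in the mutant and none in the wild type. The windows were chosen by the read values of both strains: they were the rows of the authors' comparison of ABP1d with WT in which the WT value was 0 and the ABP1d value was above 0, which left 1713 of 4012 listed windows, or 42.7%. Since those values chose the windows, their reads are given as a description and no test was made on them. The WT group was the wild-type strain and the ABP1d group is labelled by its genotype ABP1d, read here as the deletion of abp1; both were grown exponentially in rich medium without treatment, per the labels. Each group held 2 libraries, whose reads were pooled into 1 value per strain and window before deposit, so no spread between libraries can be given. A window's value times its length returned whole reads; the strain totals behind the scaling were 23817270 for ABP1d and 14466014 for WT. At equal scaled abundance, 10 ABP1d reads correspond to 6.07 WT reads. The abp1 gene (cbp1 in the annotation) had 0 listed windows, so the labels of the strains could not be checked from it.

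Abp1 is one of the fission yeast relatives of CENP-B, a centromere DNA-binding protein derived from a transposase. It binds the long terminal repeats (LTRs) of Tf2 retrotransposons, recruits histone deacetylases to them and gathers the elements in the nucleus. A Tf2 element copies itself through RNA and carries a single long reading frame for its structural and enzymatic proteins between an LTR at each end, while a solitary LTR is what remains of an element after recombination between its LTRs. Small RNAs of fission yeast are best known from the RNA interference pathway at centromeric repeats, where they guide heterochromatin.

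Tf2 sequence held the windows with most reads, and the 5 leading windows of the element Tf2-1 (chrI:1465332-1470247, plus strand, RefSeq assembly ASM294v3) are shown because the read totals of the whole set turn on them. Capitals mark the window, lower case the neighbouring bases, and the numbers in each name are the window's positions counted from 1 at the first base of the element's 5′ LTR. All 5 lie in the internal part of the element, between its LTRs.
Tf2-1 2634 to 2683: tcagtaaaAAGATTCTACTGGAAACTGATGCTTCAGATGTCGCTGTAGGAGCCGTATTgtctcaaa
Tf2-1 1179 to 1225: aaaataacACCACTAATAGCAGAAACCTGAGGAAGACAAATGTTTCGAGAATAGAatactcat
Tf2-1 1702 to 1744: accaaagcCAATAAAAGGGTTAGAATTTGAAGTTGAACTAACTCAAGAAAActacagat
Tf2-1 1802 to 1846: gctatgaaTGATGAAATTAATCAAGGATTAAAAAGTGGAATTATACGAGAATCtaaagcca
Tf2-1 2751 to 2787: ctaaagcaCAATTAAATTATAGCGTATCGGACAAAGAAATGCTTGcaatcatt

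The windows without WT reads were mostly repeats when windows were counted, and mostly other sequence when each distinct sequence was counted. Tf2 elements held 925 of them and LTRs outside Tf2 elements another 305, together 71.8% of the windows and 92.2% of their 189064 reads. Of all 4012 listed windows, 39.8% were on Tf2 elements or LTRs; nothing is read from the difference, since the values chose the windows. Protein-coding genes held 261 windows, noncoding RNA genes 99, intergenic sequence 55, the rRNA repeats 46, the subtelomeres 11, the mitochondrial genome 8, the centromeres 2 and structured RNA genes 1. The same sequence was listed with its reads at every copy. Counted by sequence, the windows on chromosomes I to III came to 501 distinct sequences with 30318 reads, of which 26.3% were on Tf2 elements or LTRs and carried 75.2% of the reads. Sequences were told apart by the whole window. Windows that share part of their sequence therefore counted separately, and these totals may hold the same reads repeatedly. Very short windows of the same bases counted as 1 sequence wherever they lay.

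The highest counts were on repeats, while the lowest counts were shared by repeats and genes. Tf2 windows ranged from 10 to 4804 reads with a median of 42, windows of other LTRs from 10 to 895 with a median of 19, and rRNA repeat windows from 10 to 221 with a median of 29. Windows in protein-coding genes ranged from 10 to 45 reads with a median of 13, so the highest coding window was close to the median Tf2 window. These counts are not per copy. Most Tf2 sequences of at least 18 bases have 10 to 14 exact copies and list the same reads at each, while 148 of the 261 coding windows have a single copy. Of the 311 windows with at least 100 reads, 294 were on Tf2 elements or LTRs. The other end of the scale was crowded: 172 windows held exactly 10 reads, the lowest count among them, and 710 held fewer than 20.

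**Figure D1:**
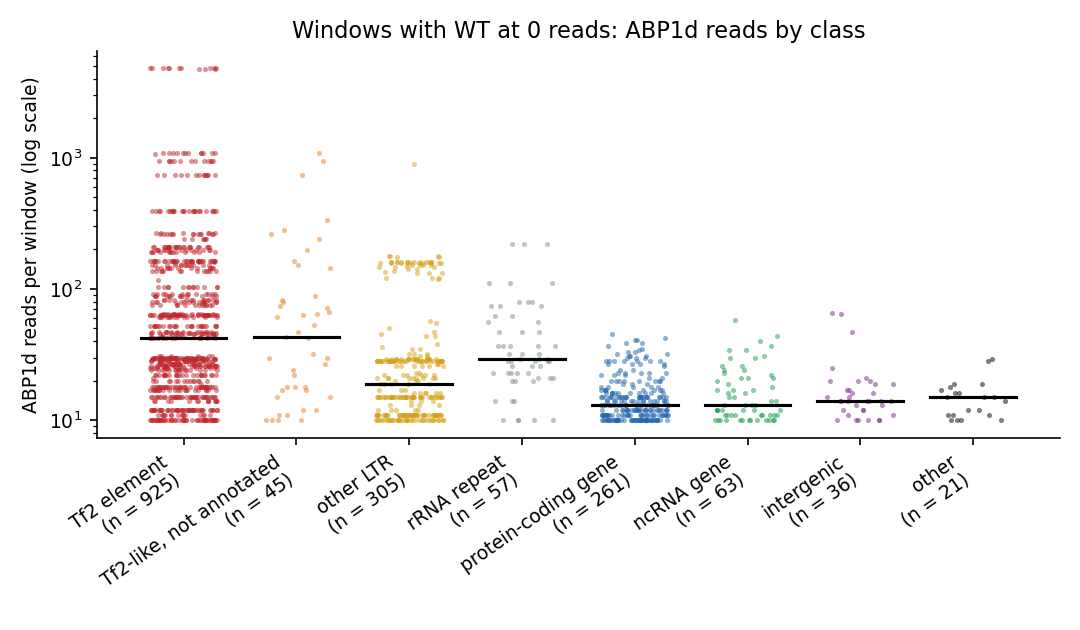
ABP1d reads per window (log axis) for the 1713 windows with WT at 0 reads, by class; each point is a window, placed sideways at random within its class, and black lines are medians. Tf2 windows reach 4804 reads, while protein-coding windows lie between 10 and 45. Tf2-like sequence without Tf2 or LTR annotation is drawn apart from the classes it was listed in, and rRNA-like sequence beside the annotated repeats is drawn with the rRNA repeats.

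The classes that were absent describe the set as much as those present. None of the 176 listed tRNA windows, 37 listed 5S rRNA windows, 45 listed snoRNA windows and 37 windows of the mating-type contig lacked WT reads. Of 347 listed centromere windows 2 did, a pair of copies on chromosome II with 19 reads each. The reverse windows, with reads in WT and 0 in ABP1d, numbered 75 (1.87% of those listed), and 63 of them were centromeric and 0 were on Tf2 elements or LTRs. They held 10 to 27 WT reads.

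A count of 0 in WT is a limit of depth. With 3 WT reads as the largest count that a 0 allows, a window of 10 ABP1d reads was at least 2.02-fold higher in ABP1d, the median window at least 5.26-fold and the leading Tf2 window at least 973-fold. These bounds take the ABP1d count as exact. The exact 95% lower limit of the ratio, which also covers the error of the ABP1d count, was 1.36 for a window of 10 reads, 3.98 for the median window and 791 for the leading one. The bound against 3 reads was under 10-fold for 1220 of the 1713 windows. Bounds and limits cover counting error only, since amplified reads are not independent molecules. Just outside the rule stood 493 windows with 1 WT read, which held 10 to 1167 ABP1d reads with a median of 21. Of these, 31.2% were on Tf2 elements or LTRs and 205 were in protein-coding genes. In the authors' deposited table the highest p-value of a window without WT reads was 0.00321, and 387 were listed as 0.

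The scale also sets the size of these ratios. They rest on each strain's total, and on that scale the listed 5S rRNA windows had a median ABP1d to WT ratio of 2.38 and the snRNA and other structured RNA windows one of 4.25. Every ratio given here would be lower by those factors if the strains were scaled to these RNAs instead. The exact lower limit was above 1 for all 1713 windows on the scale of the totals, where it was above 1 for 77.6% of the 4012 listed windows. On the 5S scale it was above 1 for 1109 of the 1713, and separately for 44.6% of the 4012. On the structured RNA scale these were 796 of the 1713 and 30.4% of the 4012. Nothing is read from these counts, which are no test: with WT at 0 by the rule, the limit depends on the ABP1d count alone, and the counts are those of windows with at least 10, 17 and 28 reads.

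All 13 Tf2 elements carried windows without WT reads, between 66 and 73 each, and their reads per element ran from 12120 to 12492. These windows covered 35.5% to 37.7% of each element. The elements shared most of this sequence: the 925 windows came to 79 distinct sequences, and 76 of these had the same reads at every listed copy. Of the 67 distinct sequences of at least 18 bases, 57 had 10 to 14 exact copies in the genome and 1 had a single copy. Reads could therefore not be assigned to an element from the values alone.

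Every Tf2 element was also listed with WT reads. Each carried other listed windows, which held 33 to 51 WT reads and 8323 to 9229 ABP1d reads per element. Since the same reads are listed at every copy, these values do not show which elements the WT reads came from. Tf2-7 and Tf2-8 overlap, and windows in the overlap were counted at Tf2-7, so the counts of Tf2-8, the lowest here, leave them out. Every one of the 925 Tf2 windows lay within 1000 bases of a listed window with WT reads. Absence in WT was a property of windows inside elements that were listed with WT reads at other windows.

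Along Tf2-1 the reads of windows without WT reads were uneven. Of its 90 listed windows 73 had no WT reads, and these held 12492 ABP1d reads, of which the window at 2634 to 2683 alone held 38.5% and the 5 leading windows 63.8%. Divided into 5 stretches of equal length from 5′ to 3′, these windows held 962, 3704, 5929, 1333 and 564 reads, so the part from the second to the third stretch carried most of them. This is no profile of all ABP1d reads along the element, since its windows with WT reads held another 9009. Among the windows without WT reads the LTRs contributed little: their 10 windows summed to 186 reads with a highest count of 29, against 12306 reads in 63 internal windows. The rule shaped this, since LTR windows with WT reads, which it leaves out, held up to 414 ABP1d reads, with 10 WT reads. Of the 18 listed LTR windows of Tf2-1, 8 had WT reads, against 9 of 72 internal ones. Nothing is read from the difference, since WT values chose the windows and both LTRs list mostly the same sequences with the same reads. The LTR windows of 29 and 28 reads also have 46 and 81 exact copies in the genome. The internal window at 1056 to 1119, with 2137 ABP1d reads, had 9 WT reads and so fell outside the rule, and the window at 3728 to 3819, with 2307, had 2.

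**Figure D2:**
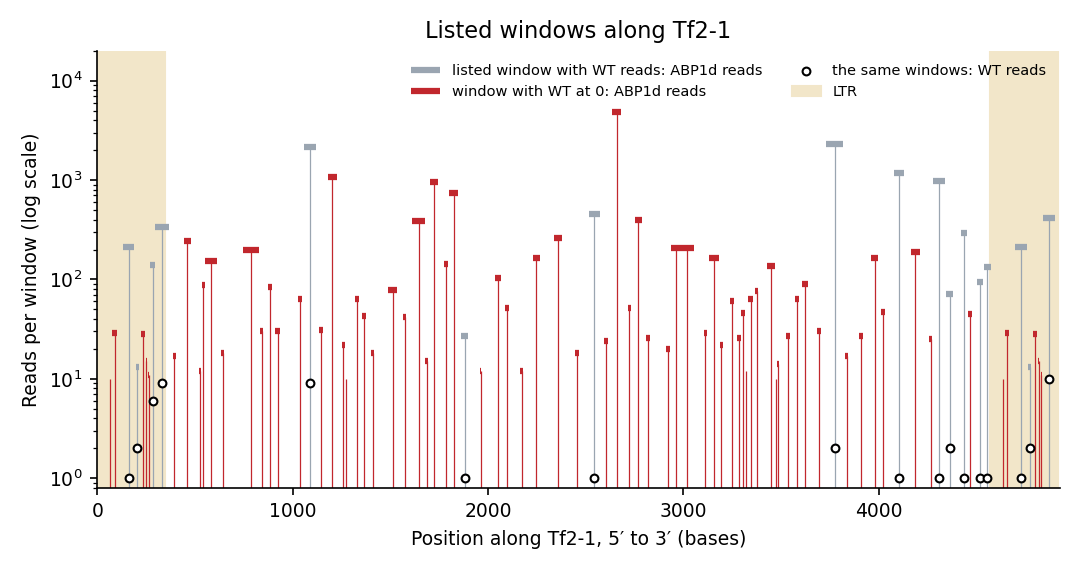
Reads per listed window (log axis) by position along Tf2-1 in bases, 5′ to 3′; red bars span windows with WT at 0 reads and grey bars other listed windows, at their ABP1d reads, open circles give the WT reads of the grey windows, and shading marks the LTRs. The leading red window, at 2634 to 2683, holds 4804 reads, and the WT reads of grey windows lie between 1 and 10.

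Some places told groups of elements apart. At 4 places, with windows of at least 30 bases and 100 reads, the elements split at or beside a small sequence difference. Each group of elements was listed there with its own window and reads. The places are shown with the differing base in capitals, Tf2-1 first. Positions in a difference are counted from 1 at the first base printed.
Tf2-1 at 442: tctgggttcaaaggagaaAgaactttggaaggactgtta
Tf2-3 at 442: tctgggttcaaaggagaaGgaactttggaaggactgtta
Tf2-1 at 1179: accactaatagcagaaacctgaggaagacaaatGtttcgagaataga
Tf2-11 at 1179: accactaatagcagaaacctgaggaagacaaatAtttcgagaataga
Tf2-1 at 2634: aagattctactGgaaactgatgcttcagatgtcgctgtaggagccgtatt
Tf2-7 at 2634: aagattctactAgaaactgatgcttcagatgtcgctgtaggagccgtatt
Tf2-1 at 2751: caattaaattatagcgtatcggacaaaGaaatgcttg
Tf2-13 at 2751: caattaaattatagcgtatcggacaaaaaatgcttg

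The difference A19G at 442 divided 6 elements with the Tf2-1 version, listed at 241 reads, from 6 with the Tf2-3 version, listed at 268. At the leading window, G12A set Tf2-7, Tf2-8 and Tf2-11 apart, where a window of 40 bases held 4746 reads, from the other 10 elements, where 50 bases held 4804. Tf2-11 alone carried G34A at 1179, with 1061 reads in 31 bases against 1079 in 47. Those 31 bases end before the difference and have 14 exact copies in the genome, so they are not particular to Tf2-11. At these 3 places both groups of elements were listed with similar reads. Since most reads of a window may lie beside the difference, these values do not give the reads of either version.

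Tf2-13 gave the one place where a version differed widely in reads. It lacks the base shown in capitals at 2751, and its window there (chrIII:2322056-2322085) held 118 reads in 30 bases, against 392 reads in 37 bases at the 12 elements that have the base. That window was the only one on a Tf2 element, among those of at least 18 bases, whose own sequence occurs a single time in the genome. Up to the absent base its sequence is the same as in the other elements, so its reads may also come from them, and how reads with mismatches were treated is not stated.

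Sequence from Tf2 also appeared outside the annotated elements and LTRs. Matches to Tf2-1 of at least 100 bases and 80% identity covered 45 windows that the annotation placed in noncoding RNA genes, intergenic sequence or a subtelomere, and these held 5756 reads, 39.2% of all reads outside Tf2 elements and LTRs. Most belonged to a truncated copy at chrI:2939711-2942293, whose longest match ran over 2062 bases from the first base of Tf2-1 at 99.9% identity. It overlaps the noncoding RNA genes SPNCRNA.862, SPNCRNA.863, SPNCRNA.3329 and SPNCRNA.3330. Its 29 windows outside annotated LTRs held 5005 reads, led by 1079 reads at chrI:2941068-2941114 and 952 at chrI:2940549-2940591. Both values equal those of the Tf2-1 windows at 1179 and 1702, and the 2 sequences have 13 and 14 exact copies in the genome. The largest noncoding RNA and intergenic counts of the set were therefore counts of Tf2 sequence.

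A second, diverged remnant lies at chrIII:254424-256307 and matches Tf2-1 positions 2702 to 4586 at 93.0% identity. It held 17 windows without WT reads. All 13 of those with at least 16 bases had 10 or more exact copies in the genome, and 9 of the 13 became unique when widened to 30 bases. Adding 3 bases on at least 1 side made 7 of them unique, so on that side these windows ended within 3 bases of the last letter shared with Tf2. The leading window of the remnant, chrIII:255191-255211 with 283 reads, is shown with its neighbouring bases beside Tf2-1, on the strand of the element and with the window in capitals.
Tf2-1 counterpart: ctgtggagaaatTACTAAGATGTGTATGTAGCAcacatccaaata
chromosome III remnant: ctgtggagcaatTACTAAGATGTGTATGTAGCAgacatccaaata

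The remnant differs by A9C and C34G, counted from 1 at the first base printed, and the 21 bases of the window are the same in both. The corresponding stretch of Tf2-1 is inside the window at 3728 to 3819, which held 2307 ABP1d reads and 2 WT reads. The remnant's window is listed without WT reads while the longer window at the full elements has them.

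LTRs outside Tf2 elements held 305 windows, on 101 of the 213 annotated LTRs that are not part of a Tf2 element. They came to 63 distinct sequences. Of 161 windows of at least 18 bases, 156 had a sequence that also occurs whole inside a Tf2 element, with a median of 29 reads, and the other 5 held up to 157. The single window with most reads, 895 at chrIII:1196331-1196368, lies in a stretch annotated as an LTR that matches Tf2-1 positions 4164 to 4586 at 96.7% identity, most of it before the element's 3′ LTR, which begins at 4568. The corresponding stretch of Tf2-1 is inside its window at 4277 to 4339, which held 979 ABP1d reads and 1 WT read.

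A group of 43 LTR windows on 43 LTRs shared a core of 19 bases and held between 133 and 177 reads each. One of those at 177 reads is shown in the orientation of its LTR (chrII:3283019-3283063, minus strand) with the core in capitals, because it is the sequence most LTRs in the set had in common among windows of at least 100 reads.
LTR core window: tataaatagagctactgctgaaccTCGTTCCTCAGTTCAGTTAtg

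The core has 93 exact copies in the genome, 26 of them in Tf2 elements. On Tf2-1 the LTR windows without WT reads held at most 29 reads, and the LTR windows of at least 100 reads all had WT reads. LTR windows without WT reads lay beside others that had them: 239 of the 305 were within 100 bases of a listed window with WT reads. Only 2 LTR windows had a sequence found a single time in the genome, with 14 and 15 reads.

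**Figure D3:**
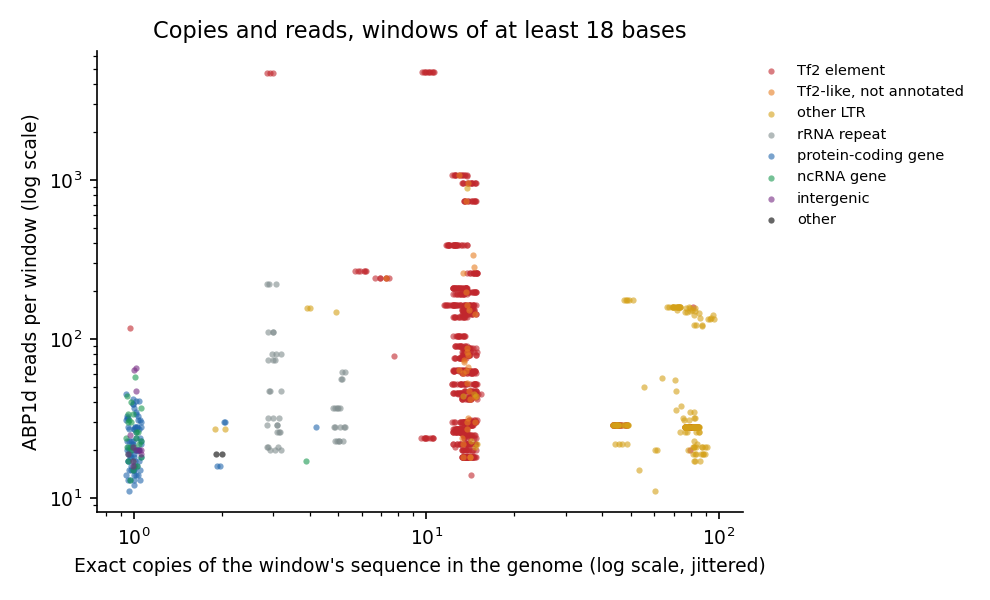
ABP1d reads per window (log axis) against the number of exact copies of the window's sequence on chromosomes I to III (log axis, jittered sideways) for windows of at least 18 bases with WT at 0 reads; colours are classes. Single-copy windows stay under 70 reads apart from the Tf2-13 window at 118, Tf2 windows gather at 10 to 14 copies, and LTR windows reach beyond 40 copies.

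The rRNA repeats of chromosome III, which encode the 18S, 5.8S and 28S rRNAs, held 46 windows without WT reads, and 0 of them overlapped an rRNA gene. All lay in the spacer between the 18S gene of one repeat and the 28S gene of the next. They came to 16 distinct sequences, each with the same reads at every listed copy. The leading window held 221 reads at each of 3 copies, 2401 bases from the 18S gene in the repeat shown (capitals mark the window, chrIII:14661-14709, plus strand).
rRNA spacer window: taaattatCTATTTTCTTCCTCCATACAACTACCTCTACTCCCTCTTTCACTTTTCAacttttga

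The next spacer windows held 111, 80 and 74 reads. A further 11 windows listed as intergenic matched the repeat just beyond its annotated ends and held up to 62 reads. As with Tf2, these counts stood beside abundant windows with WT reads, since 113 of the 159 listed windows of the repeats had them.

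Without Tf2 elements, LTRs, other Tf2-like and rRNA-like sequence, 381 windows remained with 6161 reads. Their counts ran from 10 to 66 with a median of 13, and 301 of them held fewer than 20 reads. By class they were 261 in protein-coding genes, 63 in noncoding RNA genes, 36 intergenic, 10 subtelomeric, 8 mitochondrial, 2 centromeric and 1 in a structured RNA gene. The sequence of 212 occurred a single time in the genome, 95 of these on fewer than 18 bases. Widened to 30 bases, 343 were unique.

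Window length set a limit on that reading. The libraries were sequenced for 38 cycles, per the labels, yet 607 of the 1713 windows were shorter than 18 bases and the shortest was 1 base. The reads counted in a window of a few bases are longer than the window, so the copies of the window are not those of its reads. The lengths peaked at 18 bases, with 269 windows, and reached 86. None of the 1700 on chromosomes I to III held a run of 15 or more A or T, which 220 listed windows do. The others have no sequence here, and windows under 15 bases cannot hold such a run.

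**Figure D4:**
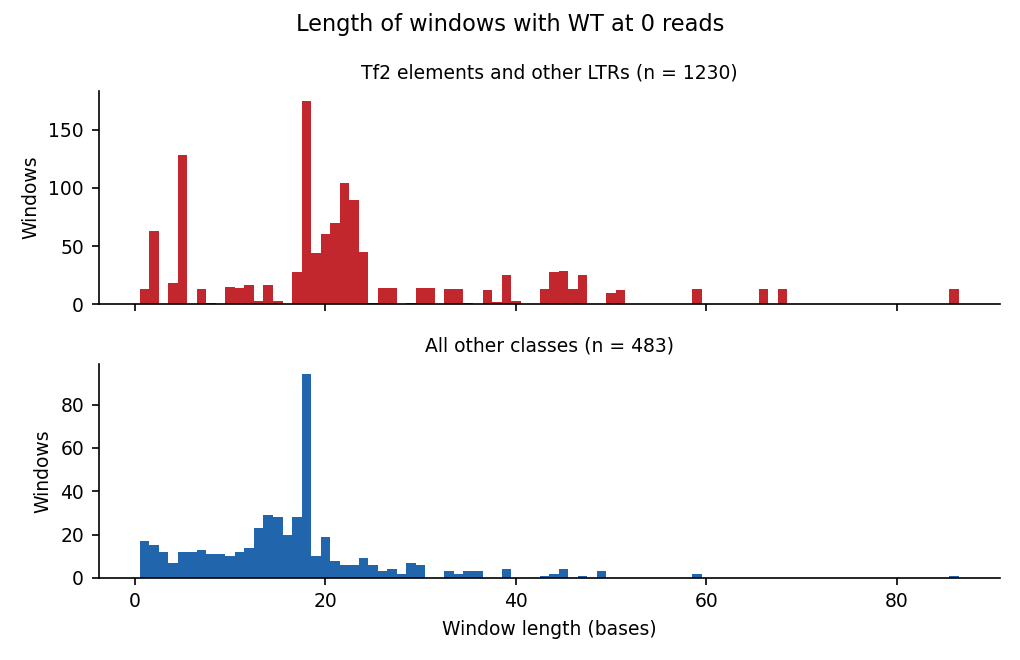
Number of windows with WT at 0 reads by window length in bases, for Tf2 elements and other LTRs (upper panel, 1230 windows) and for all other classes (lower panel, 483 windows). Both have their highest bar at 18 bases; of the upper panel 333 windows and of the lower panel 274 are shorter than that.

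The single-copy windows with most reads are shown because their own sequence occurs a single time in the genome. Capitals mark the window with a few bases on each side, on the plus strand of the assembly or, for a coding gene, on the gene's strand; the strand of the reads is not in the values.
rps20 neighbour: ttTGTTCATGGATAGATCGGACGGACta
dhp1 and Tf2-4 interval: taGTCTCCGCAGTCCTACCTAAATTtt
SPNCRNA.1389 and SPNCRNA.1390: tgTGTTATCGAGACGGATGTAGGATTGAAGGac
meu1 neighbour: ttCACGGAGTACGAGGAATTGTAGAGTTgc
rpl1901: aaTGGCCAATCTTAGAACGCAGAAgc
SPNCRNA.1473: ctCACGTCCTTTGTCCTTTCga
idh1: gcGATGGAATTGGACGAGAAACGAGCAat

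The highest, at chrIII:2097092-2097115, held 66 reads and lies 75 bases from rps20, a ribosomal protein gene, and was at least 13.4-fold higher in ABP1d against 3 WT reads. Its exact 95% lower limit was 10.6 on the scale of the totals, 4.44 on the 5S scale and 2.49 on the structured RNA scale. The next, chrI:3361050-3361072 with 64 reads, lies 76 bases from an end of Tf2-4 and 47 bases from dhp1, the gene of a nuclear exoribonuclease. The window beside rps20 lies 11173 bases from the nearest Tf2 element or LTR. The window shared by SPNCRNA.1389 and SPNCRNA.1390, overlapping noncoding RNA genes, held 58 reads. The window 393 bases from meu1 held 47, and that of SPNCRNA.1473 held 44.

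Protein-coding genes were touched widely and thinly. In all, 260 of 5100 annotated coding genes (5.10%) had a window without WT reads, 241 of them a single window, 17 genes a pair and 2 genes 3 windows. For 148 genes at least 1 window was single-copy. Only 4 coding windows held 40 reads or more, while 183 held 10 to 15. For 57 of the 260 genes another listed window had WT reads, so for the remaining 203 the listed signal of the gene consisted of windows without WT reads. A gene's unlisted sequence has no value here, which leaves its WT reads unknown.

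The 25 single-copy genes with most reads included 18 coding genes and 7 noncoding ones, between 33 and 68 reads each. SPNCRNA.4991 came first with 68 reads in 2 windows, of 37 and 31. The nearest coding gene was the ubiquitin gene ubi4 for the first, at 69 bases, and ecm14 for the second, at 11 bases. After SPNCRNA.1389 and SPNCRNA.1390, SPNCRNA.6627 had 50 reads in 2 windows, and SPNCRNA.5884 and SPNCRNA.964 had 34 reads in 1 window each.

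Of the 18 coding genes, gcn3, the alpha subunit of the initiation factor eIF2B, held 65 reads in 3 single-copy windows of 32, 18 and 15 reads. The first, chrIII:1464615-1464632, touches only the end of its 3′ UTR, at 1464630, and lies mostly beyond the gene. gcn3 had no other listed window. rpl1901, which encodes ribosomal protein L19, held 45 reads in 1 window of its coding sequence, the highest coding window of the set. A different listed window of rpl1901 held 84 ABP1d and 97 WT reads, so the gene was not without WT reads. tif45, the cap-binding factor eIF4E, held 34, beside another window with 23 ABP1d reads and 1 WT read. Of 137 ribosomal protein genes, 15 had a window without WT reads (10.9%, against 5.10% of all coding genes). Of the 63 with any listed window this was 23.8%, against 33.4% of the 778 coding genes with any listed window. tef103, 1 of 3 genes for elongation factor EF-1 alpha, also had 3 windows with 45 reads in total, but none of the 3 was single-copy, and tef101 and tef102 shared 2 of them at 28 reads. Reads of the shared windows cannot be divided between these near-identical genes. The other window of tef103, with 17 reads on 8 bases of its 5′ UTR, was unique when widened to 30 bases.

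Next in reads among the 18, gem1, which encodes a GTPase of the contact sites between endoplasmic reticulum and mitochondria, held 60 reads in 2 windows, of 41 and 19, the second also overlapping SPCC320.03. Beside them gem1 had another listed window, with 19 ABP1d reads and 1 WT read. A pair of overlapping genes, omh1 for a Golgi mannosyltransferase and SPBC19C7.11 for a chloride channel, shared the same 2 windows with 51 reads, of 39 and 12. mnn9, a subunit of the mannan polymerase, held 41 reads in its 5′ UTR, and gms1, the Golgi UDP-galactose transporter, held 33 in its 3′ UTR. gms1 also had another listed window, with 38 ABP1d and 3 WT reads. ght5, the main high-affinity glucose transporter, held 44 reads in 2 windows, beside 3 other windows with 84 ABP1d and 6 WT reads. plb2, a phospholipase gene, and the overlapping SPAC1786.04 shared 1 window of 39.

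Among the others, adh1, alcohol dehydrogenase, held 44 reads in neighbouring windows of 27 and 17, beside another window with 54 ABP1d and 3 WT reads. idh1, a subunit of mitochondrial isocitrate dehydrogenase, held 42 and acl1, a subunit of ATP citrate synthase, 37. acl1 also had another listed window, with 14 ABP1d and 2 WT reads. cpn1, the caprin homolog, held 40 reads in windows of 22 and 18, cmk2, a protein kinase activated by the stress MAP kinase, 34 in windows of 22 and 12, cam2, a myosin light chain, 33, and sro1, 35. The sro1 window, chrII:4083195-4083218, lies mostly beyond the end of the gene at 4083198. All 25 genes thus had fewer reads than any of the 311 windows with at least 100. Of those windows 294 were on Tf2 elements or LTRs, where most sequences have several copies, so the reads are not per copy.

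**Figure D5:**
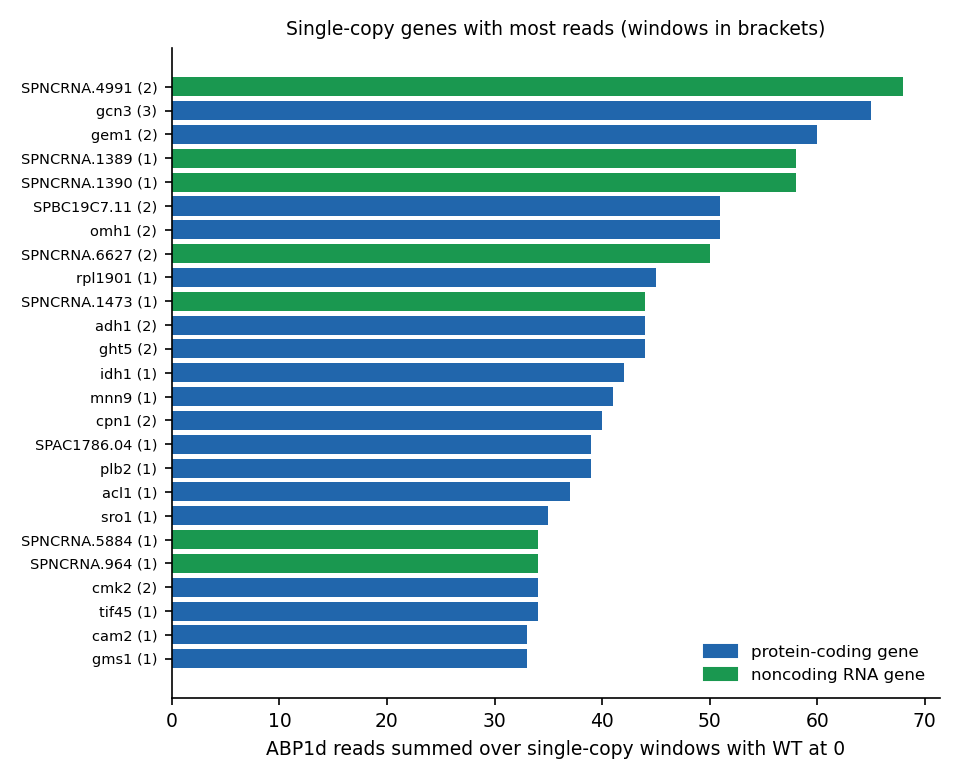
ABP1d reads summed over the single-copy windows with WT at 0 reads of each gene, for the 25 genes with most; blue bars are protein-coding and green bars noncoding RNA genes, and the number of windows is in brackets. Overlapping genes are drawn with the same window: SPNCRNA.1389 with SPNCRNA.1390, omh1 with SPBC19C7.11 and plb2 with SPAC1786.04. The bars run from 33 to 68 reads.

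Duplicated genes added to the coding windows. rpn501 and rpn502, near-identical genes for a subunit of the proteasome's regulatory particle, each had windows of 30 and 16 reads with 2 copies in the genome. The 30-read windows lie 93 bases from an annotated LTR at both genes. Reads of this pair cannot be assigned to either gene.

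Within coding genes, 140 of the 261 windows overlapped coding sequence, 60 the 3′ UTR, 46 the 5′ UTR and 15 an intron, and 95 also overlapped an annotated noncoding RNA. In percent these were 53.6 for coding sequence, 40.6 for UTRs and 36.4 for overlap with a noncoding RNA. The 607 other listed windows in coding genes gave 46.5, 44.8 and 41.2. The windows without WT reads were shorter, with a median of 15 bases against 20, and had 13 against 22 ABP1d reads in the median. They were seldom near repeats: 17 of 261, or 6.51%, lay within 1000 bases of an LTR or Tf2 element, against 5.27% of the other coding windows.

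Of 96 genes in 11 lists, 7 had a window without WT reads (7.29%, against 5.10% of all coding genes), 24 had only other listed windows and 65 had none. Among list genes with any listed window the share was below the 33.4% of all coding genes with any listed window. The 7 were ght1 and ght5 among 8 hexose transporters, tef101, tef102 and tef103 among 8 translation factors, adh1 among 16 genes of glycolysis and fermentation and ssa2 among 12 heat shock and stress genes. The tef genes share windows, so they are not separate entries. ssa2, an Hsp70 chaperone gene, and ght1 held 11 and 10 reads. Among glycolysis and fermentation genes, 10 others, tdh1, pgk1 and pyk1 among them, were listed only with windows that had WT reads. No window without WT reads fell on the 11 genes of RNA interference and heterochromatin, where only swi6 had a listed window, or on the 9 histone deacetylase and Tf2 regulator genes or the 3 genes of the CENP-B family, none of which had any. The same count was 0 for 8 meiotic genes, 7 phosphate and iron genes, 7 cell wall and adhesion genes and 7 auxotrophic marker genes.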

How the data were processed

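Small RNA libraries were made from total RNA by adapter ligation, amplification and gel selection, per the labels' protocols. The submitters' processing notes name Bowtie 0.12.5. The build, the window caller and the handling of reads that match several places are not stated in the labels or files. The authors deposited RPKM values pooled per strain and a p-value per window. RPKM times length gave whole reads for 100% of windows, within 1e-06, with the totals as the inverse of 1 read's step; depth per library is unknown, and the labels' strand information is not in the values. The strains' own region lists, whose lowest entries hold 5283 reads in ABP1d and 7869 in WT, overlapped 0 of these windows. No value column was left unmapped.

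Coordinates are 1-based on ASM294v3. Starts were read as 1-based and ends as exclusive. For 59 of 59 kinds of window present on Tf2 copies in both orientations the sequence is then the same. Under the usual BED reading this held for 0 of 59. Among the readings tried that keep the window's length, end minus start, only the one used gave 59 of 59. Longer and shorter readings around the same centre also gave 59 of 59, so the check rests on that length. Classes were assigned from an overlap of 1 base or more. Tf2 elements (joined with LTRs up to 500 bases away) came first and other LTRs second. The rRNA repeats, 5S genes, tRNAs, snoRNAs, structured RNAs, centromeres, subtelomeres (50000 bases), coding genes, noncoding RNAs and intergenic sequence followed; windows of the mitochondrial, mating-type and telomeric contigs kept the contig's class, without sequence. Copies are exact matches of the window on either strand of chromosomes I to III. Tf2-like and rRNA-like sequence was found with blastn 2.17.0. Ratio limits are exact (Clopper-Pearson, scipy 1.17.1) at 95%, with 3 reads as the floor for 0. Python 3.11.15, pandas 2.3.3 and matplotlib 3.10.9 were used, and the steps were tested on simulated data.

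The windows and gene lists were chosen with earlier results of these data known. Named items were the 10 windows with most reads, the 2 with most per class, the 25 single-copy genes with most reads, genes with at least 3 windows and list genes with a window; rpn501, rpn502, the Tf2 variants, the Tf2-like loci and the LTR core were chosen after their values were seen. A count test per library was not possible.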

Additional observations from a re-analysis of the deposited data

How the results depend on the processing

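No paired analysis was possible because each strain has 1 pooled value per window; leaving out a library and the replicate number as a block were not run for the same reason. The number of windows without WT reads, 1713, became 250 with windows of equal reads and length counted a single time, 1003 with at least 20 reads, 501 by distinct sequence and 1106 with at least 18 bases. The share on Tf2 elements or LTRs, 71.8%, became 75.6% with 1000 bases around every repeat, 44.4% with equal reads and length counted a single time, 26.3% by distinct sequence, 81.1% with at least 18 bases and 74.4% with other Tf2-like sequence included. The 191 single-copy gene windows became 36 when every stretch of 20 bases had to be unique, which windows under 20 bases cannot meet, 48 when no other listed window had the same reads and length, 315 with windows widened to 30 bases, 105 with at least 18 bases and 67 with at least 20 reads. The 148 single-copy coding genes became 29, 35, 254, 82 and 53 in the same order. The 1713 windows with a lower limit above 1 became 1109 on the 5S scale and 796 on the structured RNA scale, counts that follow from the ABP1d reads alone and test nothing. A minimum of 10 reads and leaving out A/T runs could change nothing, since the lowest count is 10 and 0 windows with a known sequence hold such a run. The share was 70.3% with no margin around Tf2 elements and 71.7% with an overlap of at least 50%; copies of 1 sequence are not independent, so no error is given. The single-copy counts were 188 and 144 with that overlap of a gene and 185 and 146 with 1000 bases around repeats. The widened windows, distinct sequences, Tf2-like sequence, the 18-base minimum and, for single-copy counts, the 20-read minimum were chosen after seeing the data. Read as a usual BED file, single-copy coding windows numbered 155 against 148.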

Other observations

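Windows of the subtelomeres and the mitochondrial genome made up 19 of the 1713. The subtelomeric ones held 10 to 29 reads, and the highest, 29 and 28 reads, were neighbours on the telomeric contig. The mitochondrial ones held 10 to 18. The structured RNA window was 5 bases long with 15 reads on chromosome I. Lower in the list of single-copy intergenic windows, chrI:3415041-3415062 held 25 reads at 346 bases from rpl3202, a ribosomal protein gene, and chrI:3481337-3481356 held 20 reads at 32 bases from tps1, the gene of trehalose-6-phosphate synthase.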
